A study of Mus with 10 samples.

Results

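Transforming growth factor beta (TGF-beta) and a set of wound matrix genes were followed in mouse skin as 10 genes, chosen by name from the 22180 genes with 1 symbol on the array: the ligand genes Tgfb1, Tgfb2 and Tgfb3, the receptor genes Tgfbr1 and Tgfbr2, and the targets Acta2, Postn, Tnc, Fn1 and Sparc. All 10 were measured, each by 1 probe set. The animals were BALB/c females, 7-8 weeks old, and whole skin gave 10 arrays: 2 control, 4 labelled PUVA 3D (the 3-day group) and 4 labelled PUVA 7D (the 7-day group). PUVA joins a psoralen, which crosslinks DNA once light activates it, with UVA light. It was given on the skin, with UVA at 0.25 J/cm2, 2 times a week for 2 weeks. The labels' protocol sets a gap of 3 or 7 days between this pretreatment and imiquimod (IMQ), a drug that gives mice a psoriasis-like dermatitis, and gives the controls no gap. Whether imiquimod had been put on the skin that was arrayed is not stated for any group, so groups are named by their labels alone. The titles alone mark the arrays as separate samples, with no word on separate mice. The spread behind each p-value is thus that between samples of a group, and part or all of it may be technical.

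TGF-beta is secreted as a latent dimer that is tethered to the matrix by latent TGF-beta binding proteins and released by integrins, proteases or thrombospondin. Active ligand binds the receptor encoded by Tgfbr2, which recruits and phosphorylates the one encoded by Tgfbr1, and that kinase passes the signal to SMAD2 and SMAD3. In wounded skin the pathway drives fibroblasts to lay down fibronectin, collagens, tenascin C and periostin, and to become myofibroblasts, which contain smooth muscle actin. Acta2 is also a standing gene of vascular and hair-erector smooth muscle, so whole skin carries it without any wound.

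No member passed the test in any of the 3 comparisons. The clearest difference lay between the PUVA groups: Tnc was 1.85-fold lower and Sparc 1.31-fold lower in the 7-day group, and neither gene's arrays overlapped between the groups. Fn1 was 1.64-fold and Tgfb2 1.36-fold higher in the 3-day group than in control, each without overlap. The group means of Acta2 differed by at most 1.06-fold in all 3 comparisons. The test was limma, fitted to all genes and all 10 arrays, with p-values adjusted over the 22180 genes and a threshold of 0.05.

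**Figure D1:**
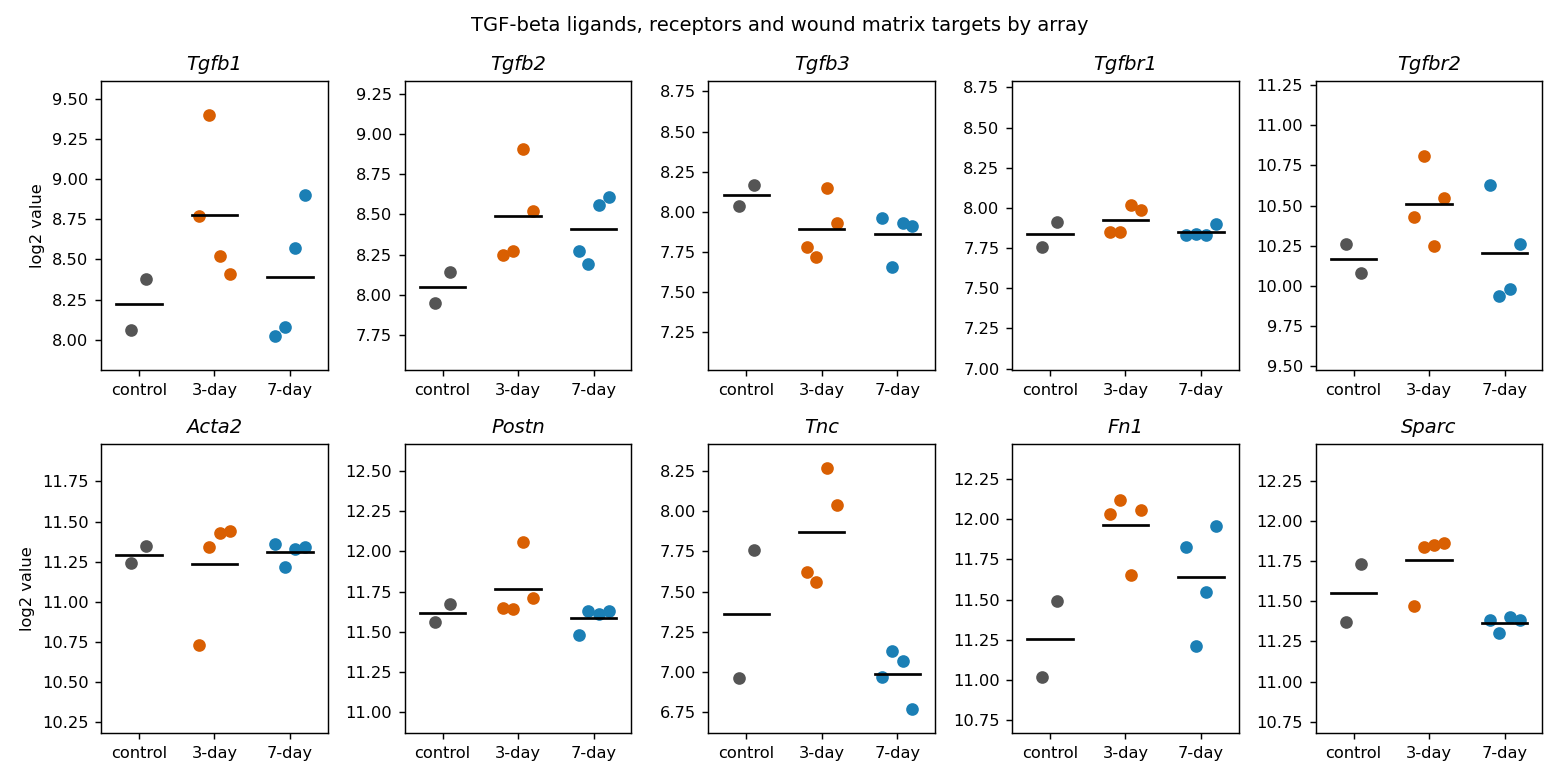
Deposited log2 value (vertical axis) of each of the 10 genes on the 10 arrays, by group (control, n = 2; 3-day and 7-day, n = 4 each). Points are arrays, horizontal bars are group means, and all panels span the same log2 range; Tnc shows the 4 7-day arrays, at 6.77 to 7.13, below the 4 3-day arrays, at 7.56 to 8.27.

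Each member lay above its array's median on every array: the lowest value, 6.77 for Tnc, stood over array medians of 5.83 to 5.86 on the log2 scale. The 2 controls differed in genes of the growing hair follicle: the mean of 6 inner root sheath genes (Krt71, Krt27, Tchh, Krt25, Krt28 and Krt73) was 7.00 in control replicate 1 and 10.41 in control replicate 2, against 4.87 to 5.55 on the PUVA arrays. The mean of 4 proliferation markers was 7.52 and 8.13 in the controls, against 7.18 to 7.43 on the PUVA arrays. All 6 and 3 of the 4 lay lower without overlap in both PUVA groups (7.89% of all genes in the 3-day group and 5.85% in the 7-day group). Their part in the differences from control reported here was not tested. Keratinocyte markers were present on all arrays, with list means of 11.56 to 11.84, as the label skin implies. Skeletal muscle markers stood at 11.80 to 12.28, so the samples also held muscle. Both comparisons with control use the same 2 control arrays.

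Among the ligands, Tgfb1, the form made by platelets, macrophages and many other cells, had log2 values of 8.06 and 8.38 in control. On the 3-day arrays it stood at 8.77, 9.40, 8.52 and 8.41, all above both controls, though the lowest by only a small step. On the 7-day arrays it stood at 8.02, 8.08, 8.57 and 8.90, spread around the controls. The log2 difference from control was 0.55 ± 0.29 (SE) in the 3-day group (limma adjusted p = 0.592), against 0.17 ± 0.29 in the 7-day group (adjusted p = 0.975). One array carried much of the first value: without 3-day replicate 2, at 9.40, it was 0.34.

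Tgfb2, a ligand expressed in hair follicle epithelium and dermis, was the member that lay above both controls on all 8 PUVA arrays. Its values were 7.95 and 8.14 in control, then 8.25, 8.27, 8.91 and 8.52 in the 3-day group, and 8.27, 8.19, 8.56 and 8.61 in the 7-day group. The groups are close: the lowest PUVA array and the higher control are 8.19 and 8.14. The log2 difference from control was 0.44 ± 0.19 (SE) in the 3-day group (limma adjusted p = 0.494) and 0.36 ± 0.19 in the 7-day group (adjusted p = 0.887). Between the PUVA groups it was -0.08, with a 95% interval of -0.42 to 0.26. 

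Tgfb3, the ligand linked to embryonic palate fusion and scar-poor repair, lay the other way. It had 8.04 and 8.17 in control, and 7.96, 7.66, 7.93 and 7.91 in the 7-day group, all below both controls. In the 3-day group it had 7.78, 7.72, 8.15 and 7.93, of which replicate 3 lay between the controls. The log2 differences were -0.22 ± 0.13 (SE) and -0.24 ± 0.13 against control (limma adjusted p = 0.643 for the 3-day arrays and 0.889 for the 7-day arrays). With Tgfb2 it makes the 2 members whose 7-day arrays did not overlap the controls, 1 in each direction, where 8.56% of all genes were higher and 5.85% lower in this way.

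Of the receptor genes, Tgfbr1 stood close to control in both PUVA groups and Tgfbr2 in the 7-day group. Tgfbr1, the signalling kinase of the receptor pair, ranged from 7.76 to 8.02 over all 10 arrays. Its log2 difference from control was 0.089 (95% interval -0.10 to 0.27) in the 3-day group and 0.013 (-0.17 to 0.20) in the 7-day group. Tgfbr2, which binds the ligand, had 10.26 and 10.08 in control, 10.43, 10.81, 10.25 and 10.55 in the 3-day group, and 10.63, 9.94, 9.98 and 10.26 in the 7-day group. Its groups overlapped in every comparison, and the 7-day group alone spanned nearly the whole range of the gene. The log2 difference from control was 0.33 ± 0.20 (SE) in the 3-day group, with a limma adjusted p of 0.634, and 0.030 ± 0.20 in the 7-day group, with 0.992.

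Of the wound targets, Fn1, which encodes the fibronectin of provisional and mature matrix, differed most from control. Its values were 11.02 and 11.49 in control, and 12.03, 12.12, 11.65 and 12.06 in the 3-day group, all above both controls. The 7-day arrays had 11.83, 11.21, 11.55 and 11.96, with replicate 2 between the controls. The log2 difference from control was 0.71 ± 0.21 (SE) in the 3-day group (95% interval 0.24 to 1.19), the 99.3rd percentile of all genes, with a limma adjusted p of 0.354. For the 7-day arrays it was 0.39 ± 0.21, with an adjusted p of 0.895. Both values depend on which control is used: the 3-day difference was 0.95 without control replicate 2 and 0.48 without control replicate 1, and the 7-day difference 0.62 and 0.15.

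Tnc, which encodes tenascin C, a matrix glycoprotein that is scarce in resting dermis and found around wounds and the hair follicle, had 6.96 and 7.76 in control. These 2 controls were further apart in Tnc than in any other member, by 0.80. The 3-day arrays had 7.62, 7.56, 8.27 and 8.04, and the 7-day arrays 6.97, 7.13, 7.07 and 6.77. Every 7-day array lay below every 3-day array, while control replicate 1 fell within the 7-day range and control replicate 2 within the 3-day range. The log2 difference between the PUVA groups was -0.89 ± 0.20 (SE), with a 95% interval of -1.32 to -0.46, in the lowest 0.158% of all genes. Its limma adjusted p was 0.235, so it was not called. Leaving out single arrays gave -0.99 to -0.76. Against control the log2 differences were 0.51 ± 0.24 (3-day) and -0.38 ± 0.24 (7-day). The first was 0.91 without control replicate 2 and 0.11 without control replicate 1, and the second 0.021 and -0.77, so its direction against control rests on the control chosen.

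Sparc, which encodes a collagen-binding matricellular protein, showed the same order at a smaller size. It had 11.37 and 11.73 in control, 11.47, 11.84, 11.85 and 11.86 in the 3-day group, and 11.38, 11.30, 11.40 and 11.38 in the 7-day group. The 7-day arrays lay within 0.10 of each other and below all 3-day arrays, of which replicate 1 came nearest. The log2 difference between the PUVA groups was -0.39 ± 0.11 (SE), with a 95% interval of -0.62 to -0.15 and a limma adjusted p of 0.311. Against control it was 0.21 ± 0.13 in the 3-day group and -0.18 ± 0.13 in the 7-day group, with control replicate 1 inside the 7-day range and control replicate 2 inside the 3-day range. Without control replicate 1 these were 0.025 and -0.36, and without control replicate 2 they were 0.39 and -0.0017.

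Postn, which encodes periostin, a matrix protein of fibroblasts that helps collagen fibres assemble, had 11.56 and 11.67 in control and 11.65, 11.64, 12.06 and 11.71 in the 3-day group. On the 7-day arrays it had 11.48, 11.63, 11.61 and 11.63. All 7-day arrays were below all 3-day arrays, but the nearest pair stood at 11.63 and 11.64, and the high value of 3-day replicate 3 set most of the difference. That log2 difference was -0.18 ± 0.10 (SE), with a limma adjusted p of 0.576, and -0.081 without that replicate. Against control it was 0.15 ± 0.12 (3-day) and -0.027 ± 0.12 (7-day).

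Acta2, which encodes the smooth muscle actin of myofibroblasts and vessel walls, had 11.24 and 11.35 in control. The 3-day arrays had 10.73, 11.34, 11.43 and 11.44, and the 7-day arrays 11.36, 11.22, 11.33 and 11.34. Apart from 3-day replicate 1 all arrays lay between 11.22 and 11.44. The log2 difference from control was -0.058 (95% interval -0.44 to 0.33) in the 3-day group and 0.020 (-0.36 to 0.40) in the 7-day group. Without 3-day replicate 1 the former was 0.11. The intervals allow differences of up to about 0.4 in either direction, so a modest difference in whole skin was not resolved.

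**Figure D2:**
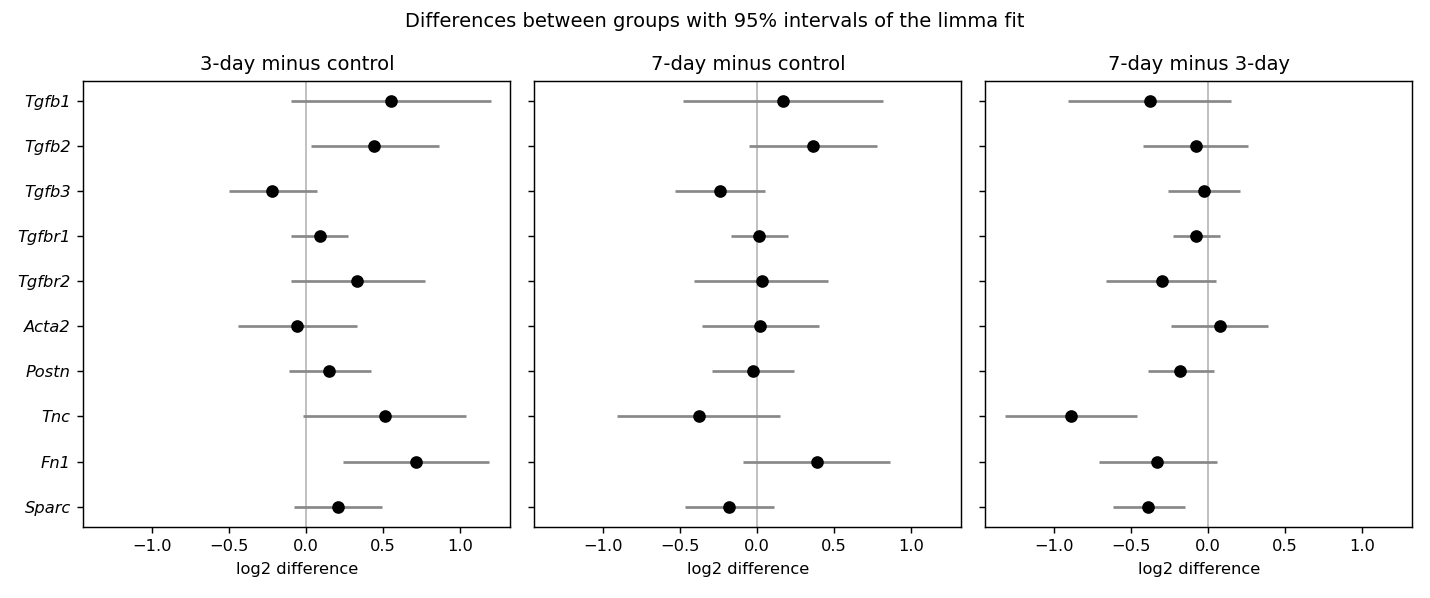
Log2 difference between group means (horizontal axis) for the 10 genes in the 3 comparisons, with points for the estimate and lines for the 95% interval of the limma fit, not adjusted for the number of genes. Intervals leave out 0 for Fn1 and Tgfb2 in the first panel, for no gene in the second, and for Tnc and Sparc in the third.

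Counted together, 8 of 10 members lay above control in the 3-day group (50.6% of all genes did), with a median log2 difference of 0.27 against 0.0023 over all genes. Limma called 0 members in this comparison at an adjusted p under 0.05 (0.00451% of all genes were called) and 2 at an unadjusted p under 0.05, Fn1 and Tgfb2, both higher (5.67% of all genes were higher and 4.07% lower at that level). The arrays of 3 members, Fn1, Tgfb1 and Tgfb2, lay above both controls without overlap (9.52% of all genes did), and those of 0 members below both (7.89%). These counts moved with single arrays. At an unadjusted p under 0.05, 4 members were higher without 3-day replicate 1 (5.42% of all genes then) and 3 without 3-day replicate 2 (4.7%). There was 1 higher without 3-day replicate 4 (4.84%), and 1 higher and 1 lower without 3-day replicate 3 (6.68% and 4.66%). Without control replicate 1 Fn1 was at 0.48 and Tgfb2 at 0.35, and without control replicate 2 they were at 0.95 and 0.54. With 1 control left, more genes of any kind have no overlap. The members numbered 4 higher and 1 lower without control replicate 1 (22.8% and 20.5% of all genes then), and 7 higher without control replicate 2 (20.6%). The members' median was 0.10 without control replicate 1.

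For the 7-day arrays 6 members lay above control (55% of all genes did) and 4 below, with a median of 0.017. Limma called 0 members (0% of all genes were called) and 0 had an unadjusted p under 0.05, a level that 3.21% of all genes reached upward and 2.68% downward. Single PUVA arrays moved this: 1 member was higher at that level without 7-day replicate 2 (3.16% of all genes then). Without 3-day replicate 3 there were 1 higher and 1 lower (3.4% and 2.81%). With 1 control left that count is not given here, but the log2 differences moved. Without control replicate 1 the median of the members was -0.05, with 4 above and 6 below, Tnc at -0.77 and Sparc at -0.36. Without control replicate 2 the median was 0.05, with 7 above and 3 below, and Fn1 at 0.62. Without control replicate 1 the arrays of 5 members lay below the remaining control (20.2% of all genes then) and 1 above (27.3%). Without control replicate 2 there were 1 below (15.3%) and 3 above (18.1%).

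Between the PUVA groups 9 of 10 members lay lower at 7 days and 1 higher (53.2% of all genes were higher), with a median log2 difference of -0.24 against 0.0095 over all genes. Limma called 0 members (0.00902% of all genes were called), and 2, Tnc and Sparc, had an unadjusted p under 0.05, both lower (4.43% of all genes were lower and 5.33% higher at that level). The arrays of 3 members, Tnc, Sparc and Postn, did not overlap and were lower at 7 days, as in 2.28% of all genes (2.95% were higher in this way). Leaving out single PUVA arrays gave 2 to 4 members at the unadjusted level, all lower (2.74% to 5.54% of all genes were lower then). There were 4 without 3-day replicate 3 or 7-day replicate 4. Without overlap there were 3 to 4, all lower (2.98% to 5.13% of all genes then). In whole skin, fewer cells of a type and less RNA per cell cannot be told apart.

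The remaining pathway genes were taken from 7 lists with 95 measured genes, chosen with earlier results of these data known. No gene of these lists was called by limma in any of the comparisons, and at an unadjusted p under 0.05 there were 13 higher and 0 lower in the 3-day group, 2 higher and 1 lower in the 7-day group, and 1 higher and 21 lower at 7 against 3 days. Over all genes the shares at that level were 5.67% and 4.07%, 3.21% and 2.68%, and 5.33% and 4.43%. The 13 higher at 3 days and the 21 lower at 7 against 3 days lay above these shares, and the other counts lay below. Most of the 21 came from a single list, the wound matrix.

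Of the co-receptors, Eng, the endothelial co-receptor endoglin, had a log2 difference of 0.40 ± 0.12 (SE) in the 3-day group and lay above both controls on all 4 arrays (limma adjusted p = 0.375). At 7 against 3 days it had -0.30 ± 0.10, with 1 array per group overlapping the other. Tgfbr3, Acvrl1 and Bambi had differences from control of -0.22 to 0.11 in both PUVA groups. Of the 5 endothelial markers all lay above 0 in the 3-day group (median 0.17), 4 without overlap (9.52% of all genes). Their part in the Eng value was not tested.

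Genes that store or activate latent TGF-beta lay above control in 12 of 14 cases in the 3-day group, with a median of 0.20. Lrrc32, which encodes GARP, the anchor of latent TGF-beta on regulatory T cells and platelets, had 0.43 ± 0.11 (SE), with all 4 arrays above both controls and a limma adjusted p of 0.303. Ltbp2, a matrix protein of the latent binding family, had 0.44 ± 0.23, and the integrin subunit Itgb3 had 0.56 ± 0.32, both with overlap. Thbs1, whose product thrombospondin activates latent TGF-beta, had 0.30 ± 0.19. At 7 against 3 days 13 of the 14 lay lower, with a median of -0.14, which was -0.22 without 3-day replicate 1 and -0.23 without 7-day replicate 3 or 4. Emilin1, an elastic fibre glycoprotein that restrains the processing of the TGF-beta precursor, was lower without overlap, at -0.31 ± 0.10 (adjusted p = 0.413).

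The SMAD list had no common direction, with 8 of 15 genes above control and 7 below in each PUVA group, and medians of 0.00068 and 0.010. Smad2, Smad3 and Smad4, the transducers themselves, had log2 differences from control between -0.085 and 0.026. Pmepa1, which is induced by TGF-beta and damps it, was the gene of this list with the widest difference between the PUVA groups, at -0.41 ± 0.12 (SE, limma adjusted p = 0.337). Zfyve9, which encodes SARA, an adaptor that brings SMADs to the receptor, went the other way at 0.30 ± 0.084 (adjusted p = 0.332), with no overlap. Ski and Skil encode corepressors that hold SMAD targets silent. Ski had -0.33 ± 0.14 between the PUVA groups, and Skil lay below both controls on all 7-day arrays, at -0.18 ± 0.11. The inhibitory Smad7, a rapid TGF-beta target, had -0.10 and -0.16 against control.

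Among genes often induced by TGF-beta, 13 of 15 lay above control in the 3-day group (median 0.22) and 11 of 15 in the 7-day group (median 0.10, and 0.23 without control replicate 1). Timp1, an inhibitor of matrix metalloproteinases, had 5.25 and 5.34 in control, 5.57, 6.31, 5.63 and 5.67 in the 3-day group, and 5.16, 5.02, 5.24 and 5.10 in the 7-day group. The 3-day arrays lay above both controls and the 7-day arrays below both. All but 1 of these values fell under the array medians, so the gene was dim here. Its log2 difference between the PUVA groups was -0.67 ± 0.15 (SE), with a limma adjusted p of 0.235. Plaur, the urokinase receptor gene, had -0.34 ± 0.12 in the same comparison (adjusted p = 0.431). The list as a whole differed little there, with 10 of the 15 genes lower, 5 higher and a median of -0.049. Without 3-day replicate 3 that median was -0.16. Ccn2, Tgfbi and Cdkn1a, all common readouts of the pathway, had differences from control between -0.046 and 0.10. Junb, an AP-1 subunit gene, and Angptl4, a lipase inhibitor gene, had 0.38 ± 0.22 and 0.71 ± 0.33 in the 3-day group, of which Junb lay above both controls on all 4 arrays.

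The wound matrix list held the strongest shifts beside Tnc. In the 3-day group 18 of 20 genes lay above control (50.6% of all genes did), with a median log2 difference of 0.44. At an unadjusted p under 0.05 there were 10, all higher (5.67% of all genes were higher at that level). Without overlap 8 were higher and 1 lower (9.52% and 7.89% of all genes). Lox, which crosslinks collagen and elastin, had 0.98 ± 0.22 (SE), Col5a1 and Col5a2, the fibril-initiating collagen V genes, had 0.80 ± 0.22 and 0.73 ± 0.19, and the matricellular gene Ccn1 had 1.10 ± 0.29. Their limma adjusted p ranged from 0.223 to 0.319. Without control replicate 1 the count at the unadjusted level was 4 of 20 and the median 0.23. The genes higher without overlap were 15 without control replicate 2 (20.6% of all genes then) and 13 without 3-day replicate 1 (13.3%).

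At 7 against 3 days 19 of these 20 genes were lower, with a median of -0.62. At an unadjusted p under 0.05 there were 14, all lower (4.43% of all genes were lower and 5.33% higher at that level). Without overlap there were 8, all lower (2.28% of all genes). Col5a1 had -0.92 ± 0.18 (SE), Lox -0.91 ± 0.18 and Col5a2 -0.78 ± 0.15, with limma adjusted p of 0.195, 0.197 and 0.206. Leaving out single PUVA arrays gave 12 to 15 genes at the unadjusted level, all lower (2.74% to 5.54% of all genes were lower then). Without 3-day replicate 1 there were 14 genes lower with no overlap (5.13% of all genes then), and Col5a2 was called, at -0.93 ± 0.12 with a limma adjusted p of 0.0459. At 7 days against control the list was split, 5 above and 15 below, with a median of -0.067. Without control replicate 1 it had 3 above and 17 below, with a median of -0.33, and without control replicate 2 it had 10 and 10, with 0.02. Col12a1, a fibril-associated collagen, lay below both controls on all 8 PUVA arrays, at -0.27 ± 0.13 and -0.62 ± 0.13. Ccn1 lay above both on all 8, at 1.10 ± 0.29 and 0.79 ± 0.29, though its nearest array and control stood at 9.36 and 9.34. No other gene of the list was without overlap at 7 days against control (8.56% of all genes were higher and 5.85% lower in this way).

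The mean of the wound matrix list was 9.03 and 9.40 in control, 9.37 to 10.03 in the 3-day group and 8.93 to 9.24 in the 7-day group. Replicate 2 of the 3-day group had the highest value of any array in 14 of the 20 genes. Of the 6 fibroblast markers limma called 0. At an unadjusted p under 0.05 there was 1 in the 3-day group, higher (5.67% of all genes), and 1 between the PUVA groups, lower (4.43%). All 6 lay above control in the 3-day group (median 0.23), but 5 did without control replicate 1 (median 0.14) or without 3-day replicate 2 (0.12). At 7 against 3 days all 6 lay lower (median -0.20), with a median of -0.12 without 3-day replicate 2, and 5 of 6 lay lower without 3-day replicate 3. Their list mean was 10.71 and 10.85 in control, 10.81 to 11.17 at 3 days and 10.63 to 10.88 at 7 days, and their part in the matrix values was not tested.

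**Figure D3:**
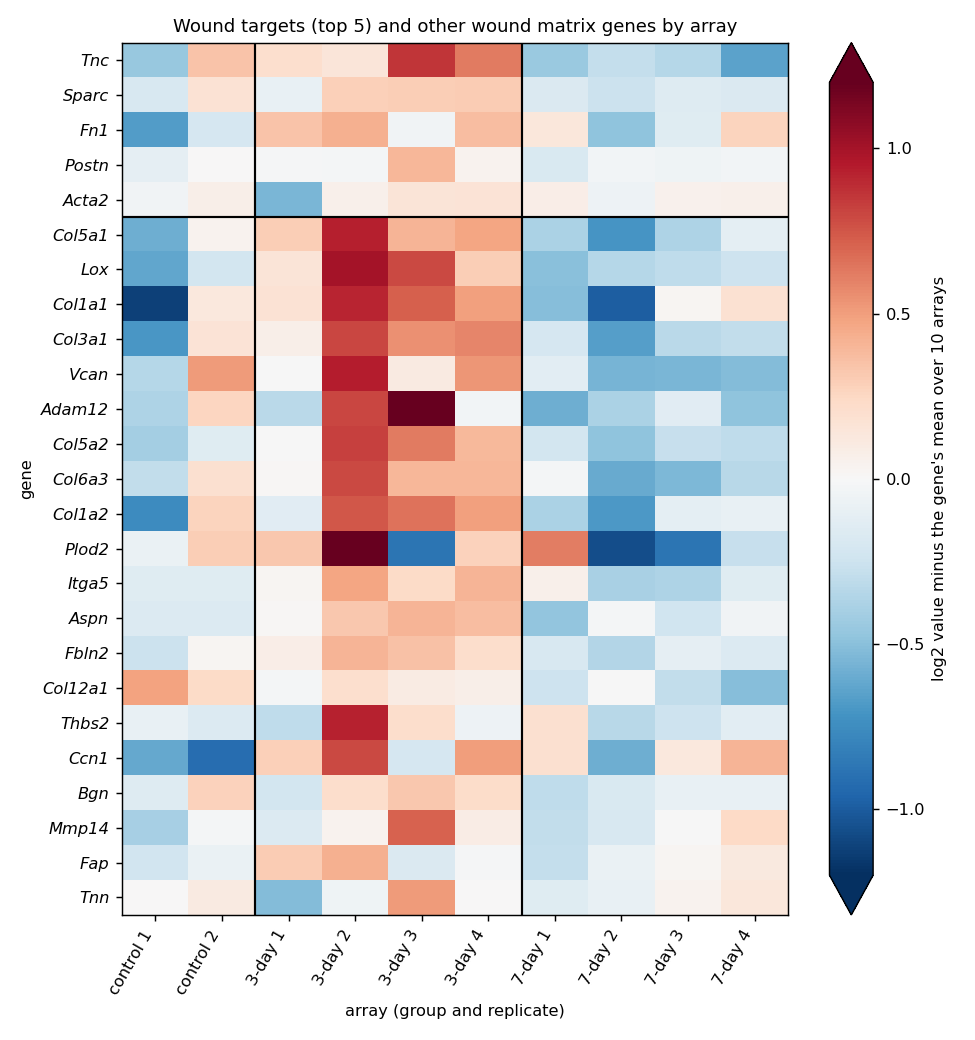
Deposited log2 value minus the gene's mean over 10 arrays (colour), for the 5 wound targets (above the line) and the 20 other wound matrix genes (below it, ordered by their difference between the PUVA groups), with 1 column per array. Red marks arrays above the gene's mean and blue those below; 3-day replicates 2 to 4 are red for most genes, 7-day arrays and control replicate 1 are mostly blue, and control replicate 2 lies between.

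The contractile list holds other genes of smooth muscle and the actin cytoskeleton, the setting in which Acta2 works. Limma called 0 of the 15 in any comparison (0% to 0.00902% of all genes), and their medians were -0.035, -0.0066 and 0.024. At an unadjusted p under 0.05 there were 0. Over all genes 5.67% were higher and 4.07% lower at that level (3-day), 3.21% and 2.68% (7-day), and 5.33% and 4.43% (between the PUVA groups). Without 3-day replicate 1 there was 1 lower in the 3-day group (4.49% of all genes then). Between the PUVA groups there were then 1 higher and 1 lower (6.93% and 5.31%). On 3-day replicate 1, 8 of the 15 had their lowest value of all arrays. Cnn1, the smooth muscle calponin gene, had 7.31 there against 8.00 to 8.65 elsewhere, and Actg2, the enteric smooth muscle actin gene, had 6.40 against 7.06 to 7.80. Myh11, the smooth muscle myosin gene, had 9.15 against 9.81 to 10.28. The pericyte list had no such low point on that array, where its mean was 8.81 against 8.56 to 9.01 elsewhere. Des and Tpm2, which skeletal muscle also expresses, did not share it, at 11.60 and 11.48, the highest value of any array. Tpm1, a tropomyosin gene, lay below both controls on all 3-day arrays, at -0.18 ± 0.089 (SE). Lmod1, a smooth muscle actin nucleator gene, lay above both on all 7-day arrays, at 0.30 ± 0.19. Tagln and Myocd, the transgelin gene and a master coactivator of smooth muscle genes, had differences from control between -0.16 and 0.29, all with overlap.

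**Figure D4:**
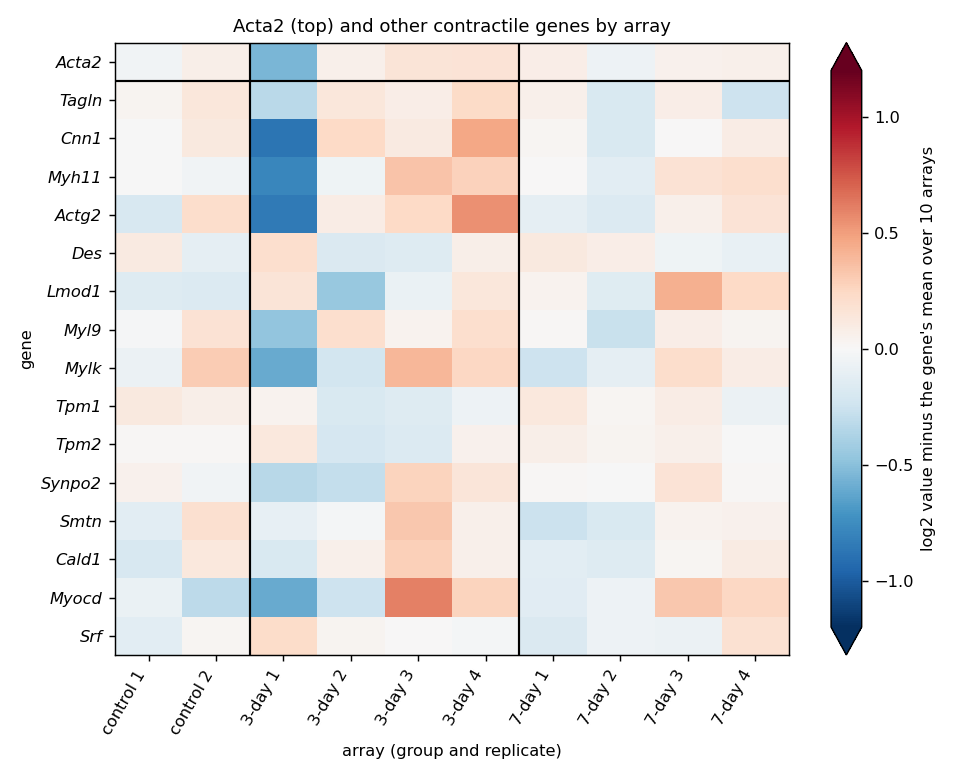
Deposited log2 value minus the gene's mean over 10 arrays (colour) for Acta2 (top) and 15 other contractile genes, with 1 column per array. Array 1 of the 3-day group is blue for Acta2, Cnn1, Myh11, Actg2, Myl9, Mylk and Myocd, and more faintly for others such as Tagln and Synpo2. No group as a whole is set apart.

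Activins, bone morphogenetic proteins and their antagonists, the neighbouring branches of the family, had medians of 0.15, 0.070 and -0.053 in the 3 comparisons. Nog, an antagonist of bone morphogenetic proteins, lay above both controls on all 7-day arrays, at 0.25 ± 0.11 (SE, limma adjusted p = 0.833). Chrd, another such antagonist, lay above both controls on all 8 PUVA arrays, at 0.30 ± 0.17 and 0.31 ± 0.17, from a dim level of 5.16 and 5.24. Fst, whose product follistatin binds activin, had 0.41 ± 0.21 in the 3-day group, and Gdf10 had 0.33 ± 0.20, both with overlap. Gdf11 had -0.29 ± 0.11 between the PUVA groups (adjusted p = 0.446).

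Tgfb1 was also set beside genes of macrophages, which it followed on some arrays and not on others. All 7 macrophage markers lay above control in the 3-day group, with a median log2 difference of 0.60. That median was 0.41 without 3-day replicate 2 and 0.76 without 3-day replicate 3. Of the 7 markers 5 were without overlap (9.52% of all genes were higher in this way). At 7 days all 7 lay above control, with a median of 0.24. Without 7-day replicate 4 there were 6 of 7 above control at 7 days, with a median of 0.14. Between the PUVA groups all 7 lay lower at 7 days, with a median of -0.38 and 3 at an unadjusted p under 0.05 (4.43% of all genes were lower at that level). Without 3-day replicate 2 this was 6 of 7, with a median of -0.21 and 0 at that level (3.19% of all genes were lower then). Without 3-day replicate 3 it was all 7, with a median of -0.56 and 6 at that level (5.54%). Replicate 2 of the 3-day group had the highest Tgfb1, Tgfbr2 and Fn1 values of all arrays and the highest value of 6 of the 7 markers. The list mean there was 10.44, against 9.54 to 9.92 on the other 3-day arrays and 9.30 and 9.44 in control. Replicate 4 of the 3-day group had the lowest 3-day Tgfb1, 8.41, with a marker mean of 9.89. Of the 7-day arrays replicate 4 had the highest Tgfb1 and the highest marker mean, 9.83. Replicate 1 of that group had the lowest Tgfb1 and a mean of 9.72, and replicate 3 had a Tgfb1 of 8.57 and a mean of 9.41. The part of macrophages in the Tgfb1 values was not tested. Platelet markers were mostly dim: Ppbp, Gp9 and Itga2b lay between 4.00 and 5.86 on all arrays. Pf4, which macrophages also express, had 8.49 on 3-day replicate 2 against 7.08 to 7.64 elsewhere.

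**Figure D5:**
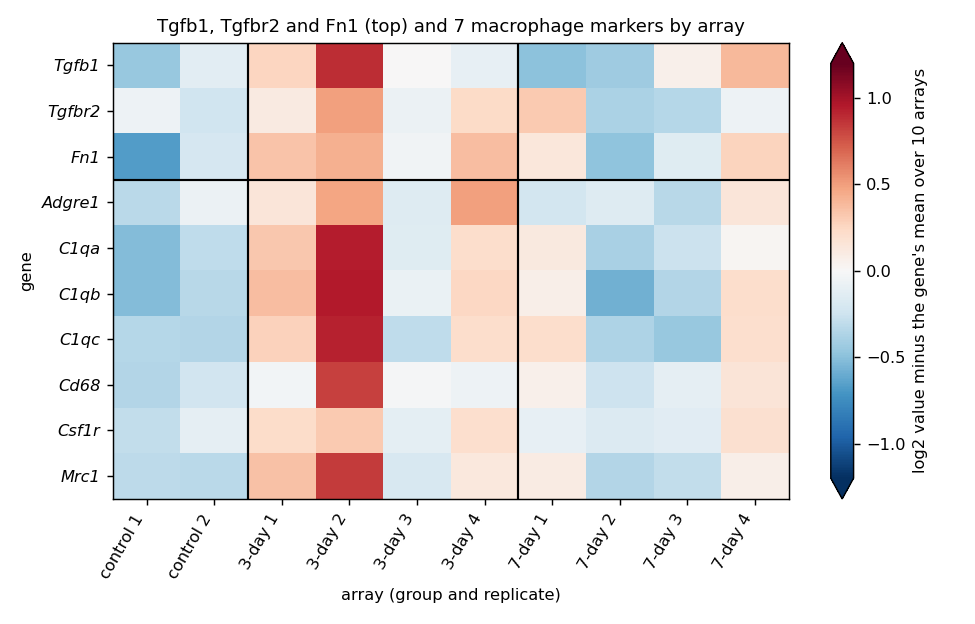
Deposited log2 value minus the gene's mean over 10 arrays (colour) for Tgfb1, Tgfbr2 and Fn1 (above the line) and 7 macrophage markers (below it), with 1 column per array. Replicate 2 of the 3-day group is red in all 10 rows, and control replicate 1 is blue in all of them, if only faintly for Tgfbr2.

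For each member, the 3 of 17435 genes with the highest Pearson r to it over the 10 arrays are given as a description, with no p, since they were picked as the highest. Over the 30 pairs r ran from 0.867 to 0.985 and Spearman's rho from 0.527 to 0.988. Tnc was matched by Gzmc, a granzyme gene (r = 0.949, rho = 0.855), and by the imprinted neighbours Zim1 (r = 0.926, rho = 0.915) and Peg3 (r = 0.913, rho = 0.939). Sparc was matched by the collagen VI gene Col6a2 (r = 0.974, rho = 0.952), the transcription factor gene Tcf4 (r = 0.968, rho = 0.903) and Galnt5 (r = 0.965, rho = 0.867). Fn1 was matched by Mfap5, a microfibril gene (r = 0.962, rho = 0.976), by the TNF receptor gene Tnfrsf1b and by Umad1 (both r = 0.953).

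Acta2 was matched by Nptx2 (r = 0.968, rho = 0.794), Cnn1 (r = 0.951, rho = 0.818) and Myh11 (r = 0.945, rho = 0.782). Without the 2 arrays farthest from its median, 3-day replicate 1 among them, these were 0.820, 0.659 and 0.668, so the match rests largely on those arrays. The same held for Postn, whose 3 matches, Tspan15, Cd300lg and Nceh1, went from 0.955 to 0.970 down to 0.328 to 0.636. For Tgfb1 the nearest genes were Zfp710 (r = 0.985, rho = 0.988), Sf3a1 and Gpr27, and for Tgfbr2 they were St3gal1, the interleukin 4 receptor gene Il4ra and the long noncoding RNA gene Morrbid (r = 0.968 to 0.977). Tgfb2 was nearest to Sdc2, Fosl2 and Mxra8 (r = 0.924 to 0.945), Tgfb3 to Pex16, Rnf40 and Dalrd3 (r = 0.867 to 0.884), and Tgfbr1 to Ptgfrn, Ctsk and Pdgfrl (r = 0.938 to 0.967).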

How the data were processed

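Skin RNA had been purified with miRNeasy columns, with a DNase step, and amplified with Affymetrix WT PLUS reagents, per the labels' protocols. The authors deposited 1 value for each of 41345 probe sets per array, taken as log2 here because of its range. Their summarization, normalization and log base were not given in the sources used here. With arrays, precision is limited by how many there are. Of the probe sets 23521 had 1 symbol in the platform annotation, and the one with the highest mean was kept per gene (22180 genes, no filter). Group means of all 10 arrays were fitted with limma 3.58.1 in R 4.3.3 (lmFit, eBayes, two-sided, Benjamini-Hochberg over all genes, residual degrees of freedom 7, prior 3.514). One spread per gene was pooled over the groups, so for genes in which the 2 controls lie far apart the errors against control are too small. The limma script was tested on simulated data. Of 169 listed symbols 162 were measured, and the others were not analysed here. All 162 had the same symbol in the RefSeq table (GRCm38.p6).

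The members and lists were chosen with earlier results of these data known. Beyond the members, the text names from each list the genes with the smallest p against control (up to 4) and between the PUVA groups (up to 2), and for each member its 3 nearest genes by Pearson r, with olfactory and vomeronasal receptor genes, small RNAs and gene models left out. Smad2, Smad3, Smad4, Smad7, Ccn2, Tgfbi, Cdkn1a, Cnn1, Actg2, Myh11, Des, Tpm2 and the platelet markers were named after their values were seen. The fit was repeated without the 30% of genes with the lowest means, with the mean of all probe sets, quantile normalization, median centring, trend and robust eBayes, array weights, with only the groups compared, and without each array in turn. Counts over lists without each array were added after seeing the data. No protein, promoter or other sequence is shown.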

Additional observations from a re-analysis of the deposited data

Results flagged for a closer look

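Within groups of 4 arrays, 9 values of 128 groups tested stood apart from the other 3 by more than 0.829 of the group's range, where chance gives about 1 in 20. On 3-day replicate 1, Acta2 was at 10.73 against 11.34 to 11.44, and Sparc at 11.47 against 11.84 to 11.86. On 3-day replicate 2, Timp1 was at 6.31 against 5.57 to 5.67. On 3-day replicate 3, Postn was at 12.06 against 11.64 to 11.71, and Angptl4, a lipase inhibitor gene of the TGF-beta-induced list, at 9.85 against 8.48 to 8.67. In the 7-day group, Tgfbr1 was at 7.90 on replicate 4 against 7.83 to 7.84, Pmepa1 at 8.49 on the same array against 8.13 to 8.19, Acta2 at 11.22 on replicate 2 against 11.33 to 11.36, and Postn at 11.48 on replicate 1 against 11.61 to 11.63.

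Timp1 lay above both controls on all 3-day arrays and below both on all 7-day arrays. The difference between the PUVA groups was -0.67 on the log2 scale, with a limma adjusted p of 0.235.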

How the results depend on the processing

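None of the 10 members crossed the threshold in any comparison under any of the 7 processing alternatives or with any array left out, with smallest limma adjusted p of 0.225, 0.315 and 0.113 for the 3-day, 7-day and between-PUVA comparisons, and no direction turned under the 7 alternatives. Genes called in all numbered 1 in the 3-day comparison (3 with array weights; 1 to 182 with single arrays left out), 0 in the 7-day comparison (0 to 217) and 2 between the PUVA groups (6 with array weights, 1 with only the groups compared, 1 without the lowest 30% of genes; 0 to 10). The counts of 182 and 217 came without control replicate 1, and 10 without 3-day replicate 1. Leaving out single arrays turned the log2 difference of Acta2 in the 3-day group (-0.13 to 0.11). In the 7-day group it turned those of Tgfbr1 (-0.062 to 0.089), Tgfbr2 (-0.11 to 0.12), Acta2 (-0.033 to 0.072), Postn (-0.085 to 0.032) and Tnc (-0.77 to 0.021). Between the PUVA groups it turned those of Tgfb2 (-0.16 to 0.062), Tgfb3 (-0.085 to 0.058) and Acta2 (-0.090 to 0.15). Of 30 list medians under the 7 alternatives, 1 of 210 values moved by more than the spread between arrays, and 6 of 300 with an array left out. Why these values moved was not tested beyond the arrays left out. No paired analysis was possible because the replicate numbers only follow the order of the samples. Background signal was not used here, so for dim genes such as Timp1 a difference may be too small.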
